A study of Mus musculus with 48 samples.

Results

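Among the immune cells sorted from mouse colon tumours in this series, those with a high level of Ly6C on their surface (Ly6Chi) were split by MHC class II into a high gate (MHCIIhi) and a low gate (MHCIIlo). All libraries titled Ly6Chi-MHCIIhi were compared with all titled Ly6Chi-MHCIIlo, with genotype in the model. These are 16 of the 48 libraries of the series, and 15 were used: 7 Ly6Chi MHCIIhi (3 ctrl and 4 ko) and 8 Ly6Chi MHCIIlo (4 ctrl and 4 ko). The Ly6Chi MHCIIhi library of ctrl replicate 2 held too few counts, under 0.1 of the median total of the series, and was left out.

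All mice had received azoxymethane (AOM), a carcinogen, and dextran sulfate sodium (DSS), which damages the gut epithelium so that colitis follows. Every sample is from day 85. No untreated mice are among these groups. The mice labelled ko lack Ccl17, a chemokine gene, and those labelled ctrl are their controls. The design names ko mice housed together with controls or apart from them, and the labels do not give the housing of a sample. Strain, age and the number of animals behind a library are not stated. The replicates are not said to come from separate mice, and the p-values therefore cover only sample-to-sample spread, which may be technical. In bulk RNA, a lower share of cells of a type and less RNA per cell cannot be told apart.

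Ly6C-high monocytes leave the bone marrow and enter the gut wall through the blood. In the gut they lose Ly6C while they gain MHC class II, the complex that presents antigen to CD4 T cells, and then turn into macrophages or cells with dendritic features. Cells that carry both proteins are therefore usually described as monocytes on the way to macrophages, and such cells become frequent in inflamed colon. Macrophages that have settled in tissue are known for complement C1q, lipid transport and uptake of dying cells, whereas monocytes are known for adhesion molecules that let them leave the blood.

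Total counts of the 15 libraries ran from 34362 to 388815. In Ly6Chi MHCIIhi they ran from 34362 to 243339 in ctrl and from 132799 to 290631 in ko. The Ly6Chi MHCIIlo libraries held 222560 to 314170 counts in ctrl and 234304 to 388815 in ko. The Ly6Chi MHCIIhi library of ctrl replicate 1 stood apart. It had 78264 counts, of which 23.2% were of the haemoglobin list (globins and other red cell genes) and 6.45% of the neutrophil list. Its summed haemoglobin level was 317295 CPM, against 1534 at most in the other MHCIIhi libraries and 2028 at most in MHCIIlo. CPM are counts scaled to the library total times a normalization factor (TMM), which was 0.73 for this library. Results are given with all 15 libraries, and counts of genes also without that library. Itgam, an integrin of myeloid cells, had 584 ± 147 CPM in MHCIIhi and 613 ± 79.7 in MHCIIlo (mean ± SD here and below, n = 7 and n = 8). It does not tell monocytes from neutrophils or macrophages. Of 19 genes listed for conventional dendritic cells, 6 passed the count filter, and the summed level of the list ran from 662 to 1746 CPM in MHCIIhi and from 907 to 1269 in MHCIIlo. Over all 15 libraries Sirpa, which monocytes also carry, had 1113 counts, Naaa 633 and Ppt1 590. Some genes that set these cells apart from monocytes had few, with 21 counts of Flt3, 2 of Zbtb46, 2 of Xcr1, 1 of Clec9a and 0 of Itgae. Other members of the list had more, with 1051 counts of Irf8, 376 of Cd24a, 108 of Wdfy4 and 85 of Batf3. A share of dendritic cells in either gate was not tested.

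**Figure D1:**
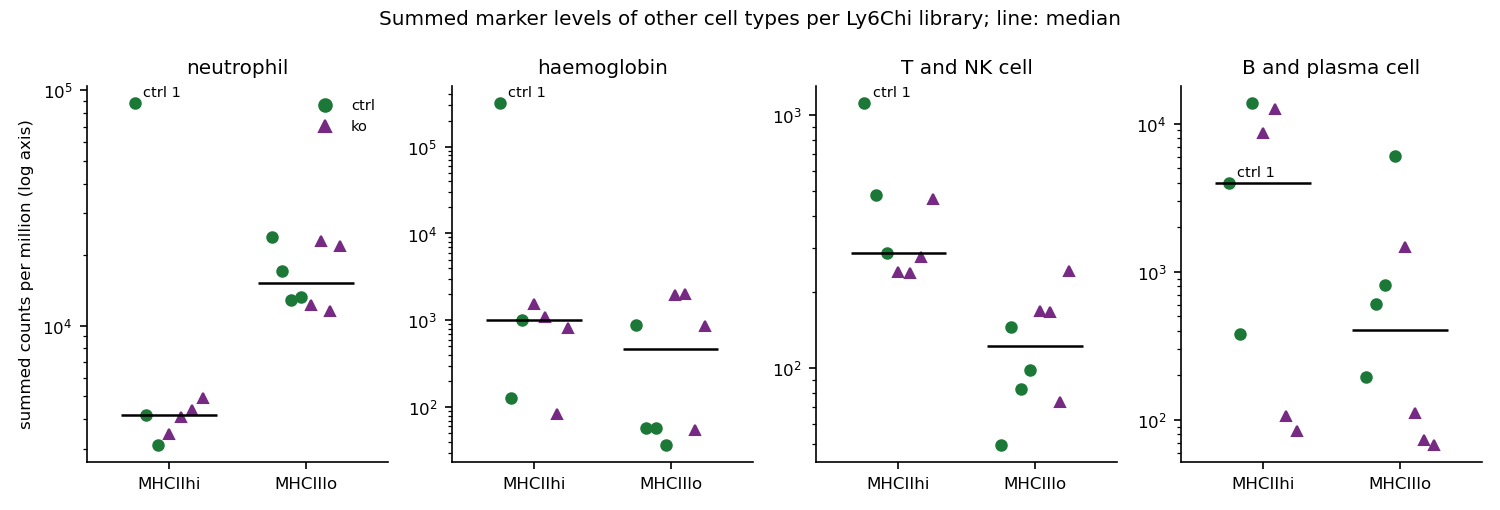
Summed level of marker genes of neutrophils, red cells (haemoglobin), T and NK cells, and B and plasma cells in each Ly6Chi library, in CPM on a log axis. Circles are ctrl, triangles ko, and lines group medians. Apart from ctrl replicate 1 at 88191, the MHCIIhi libraries had 3101 to 4924 CPM of neutrophil markers, and all MHCIIlo libraries had more (11507 to 23852). T and NK markers ran from 238 to 1118 CPM in MHCIIhi and from 49.5 to 243 in MHCIIlo.

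The first question was which genes differ between Ly6Chi cells with high and with low MHC class II. Genes that tissue macrophages express, such as the 3 chains of complement C1q, Apoe, Axl and Mrc1, were higher in MHCIIhi, and genes of blood monocytes, such as F13a1 and Vcan, were lower. Of 4756 genes tested, 61 were higher (1.28%) and 90 lower (1.89%) in MHCIIhi at an adjusted p under 0.05 (edgeR's quasi-likelihood test, Benjamini-Hochberg over all genes), 3.17% in either direction. The log2 differences of the genes that rose ran from 0.61 to 3.58 (median 1.29), and 45 of 61 exceeded 2-fold. Those of the genes that fell ran from -0.53 to -3.55 (median -1.02), and 46 of 90 exceeded 2-fold. The median over all genes was -0.01. In 8 of the 61 every MHCIIhi library lay above every MHCIIlo library, and in 31 of the 90 every one lay below. Over all genes tested, these shares were 0.231% and 0.736%. Without ctrl replicate 1 of MHCIIhi, 106 genes were higher and 136 lower. Without ctrl replicate 4 of MHCIIhi, which held the most counts of the 3 ctrl libraries used there, 28 were higher and 41 lower. The number lower was 56 without ko replicate 2 of MHCIIhi and 58 without ko replicate 4 of MHCIIlo. All 151 genes kept the sign of their difference in each of these fits where they were tested.

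**Figure D2:**
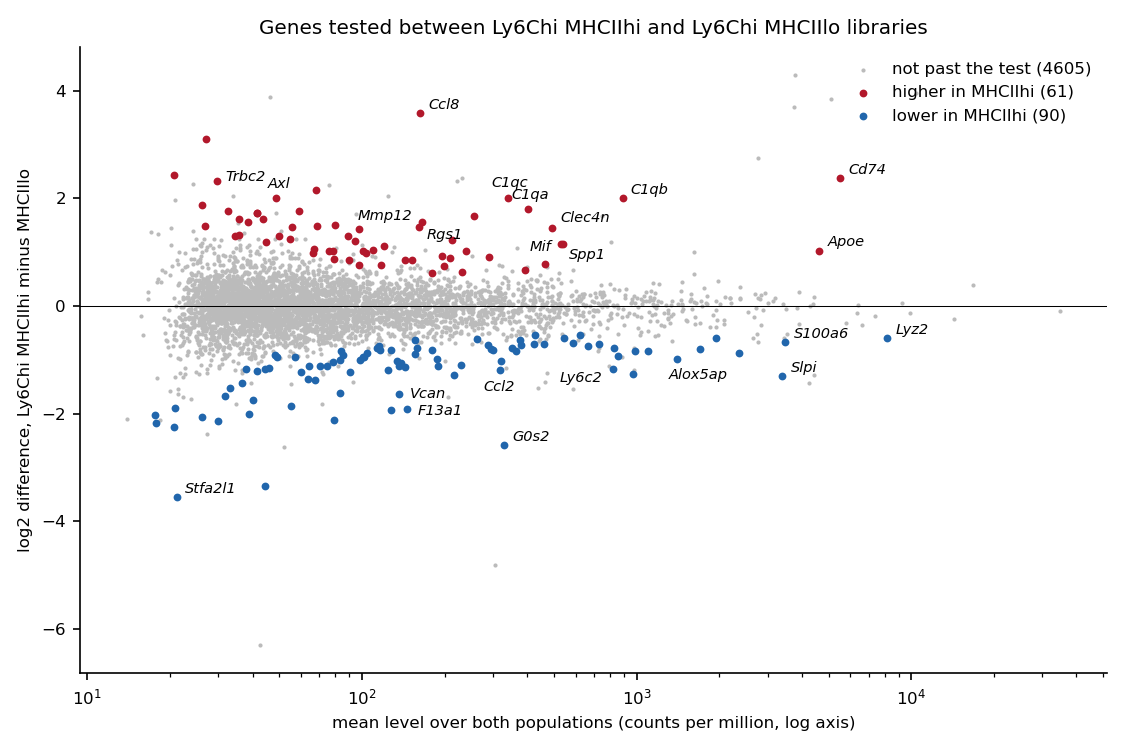
Each point is a tested gene, with its mean level over both populations in CPM on a log axis and its log2 difference, Ly6Chi MHCIIhi minus MHCIIlo. The 61 higher genes are red, the 90 lower genes blue and the 4605 others grey. Ccl8 had the highest difference among the genes past the test (3.58) and Stfa2l1 the lowest (-3.55).

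The sort on MHC class II fixes the direction of the genes of that complex, so the values of Cd74 check the gates and are not a finding. Cd74, the invariant chain that escorts MHC class II molecules, ran from 3807 to 13764 CPM (median 10063) in MHCIIhi and from 1077 to 2230.3 CPM (median 1763) in MHCIIlo. The gates did not overlap (log2 difference 2.37, SE 0.21, adjusted p = 1.7e-08). Ly6c2, which encodes the Ly6C protein of monocytes, ran from 305 to 838 CPM (median 430.2) in MHCIIhi and from 877 to 1583 CPM (median 1058) in MHCIIlo. Both gates are labelled high for Ly6C, so the sort fixes no direction for this gene, and every MHCIIhi library lay below every MHCIIlo library (log2 difference -1.17, SE 0.21, adjusted p = 0.00131). Its near-identical neighbour Ly6c1 was under the count filter, with 4.90 ± 8.47 CPM in MHCIIhi and 3.89 ± 3.83 in MHCIIlo, and reads of the pair may be split between them. Genes for most MHC class II chains are not analysed here. Ccl17, the targeted gene, was also under the filter. It was listed at 0 to 34.9 CPM in MHCIIhi and 0 to 22.3 in MHCIIlo, so it gave no check of the genotype labels at this depth.

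**Figure D3:**
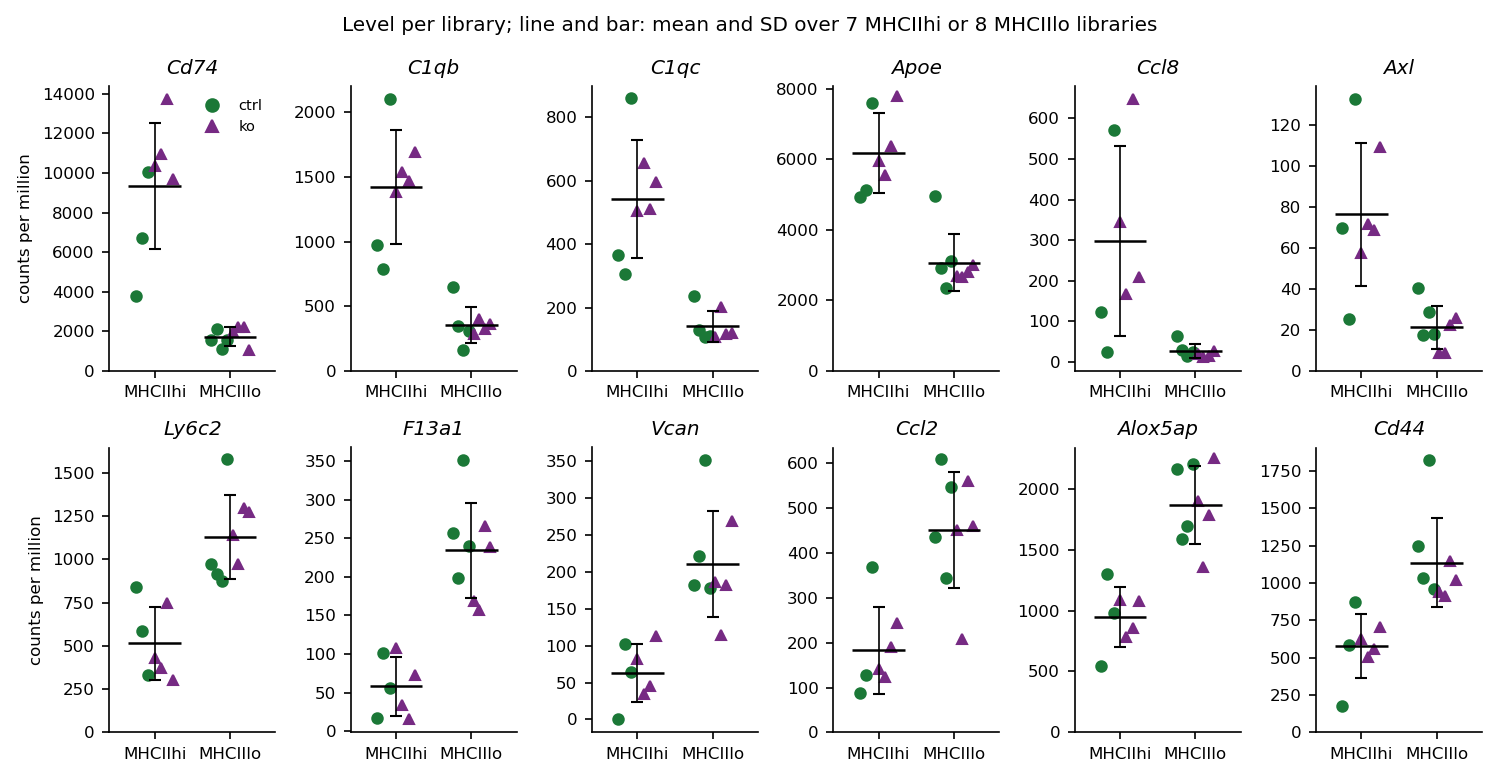
Level of 12 genes in each library in CPM, with circles for ctrl, triangles for ko, and the mean and SD over the 7 MHCIIhi or 8 MHCIIlo libraries. Cd74, C1qb and C1qc are higher in every MHCIIhi library than in any MHCIIlo library. Ly6c2, F13a1, Vcan, Alox5ap and Cd44 are lower in every MHCIIhi library, and Apoe, Ccl8, Axl and Ccl2 overlap.

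Genes of tissue macrophages rose in MHCIIhi. Of the 36 genes listed as markers of gut resident macrophages, 27 passed the count filter, and of these 12 were higher and 0 lower, beside 1.28% and 1.89% of all genes. Their median log2 difference was 0.80, against -0.01 over all genes. Without MHCIIhi ctrl replicate 1, 13 were higher, and 7 to 13 when each library was left out in turn. The 3 chains of C1q, which opens the classical complement pathway and binds dying cells, lie side by side on chromosome 4. C1qb (chr4:136880129-136886187, GRCm38) ran from 789 to 2107 CPM (median 1471) in MHCIIhi and from 163 to 653 CPM (median 335) in MHCIIlo. C1qc (chr4:136889804-136893065) ran from 306 to 861 CPM (median 511) and from 108 to 235 CPM (median 117). Neither gene overlapped between the gates, and both were about 4-fold higher (log2 difference 2.01, SE 0.24, adjusted p = 2.34e-05 for C1qb, and log2 difference 2.01, SE 0.21, adjusted p = 8.53e-07 for C1qc). C1qa (chr4:136895917-136898803) ran from 357 to 1005 CPM (median 576) and from 102 to 374 CPM (median 168), and 6 of 7 MHCIIhi libraries lay above all MHCIIlo libraries (log2 difference 1.79, SE 0.26, adjusted p = 0.000335). Ctrl replicate 4 had the highest MHCIIhi level of each chain and ctrl replicate 3 the lowest.

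Apoe, the lipid carrier that macrophages secrete, ran from 4925 to 7808 CPM (median 5951) in MHCIIhi and from 2347 to 4977 CPM (median 2866) in MHCIIlo. Only ctrl replicate 1 of MHCIIlo reached into the MHCIIhi range, and the difference was close to 2-fold (log2 difference 1.03, SE 0.17, adjusted p = 0.000657). Axl, a receptor tyrosine kinase for the uptake of dying cells, ran from 25.5 to 133 CPM (median 69.9) and from 8.52 to 40.2 CPM (median 20.3) (log2 difference 2.00, SE 0.30, adjusted p = 0.000157). Mrc1, the mannose receptor, ran from 17.5 to 92.0 CPM (median 72.4) and from 10.4 to 32.0 CPM (median 20.5) (log2 difference 1.61, SE 0.29, adjusted p = 0.00131). In both Axl and Mrc1, 6 of 7 MHCIIhi libraries lay above all of MHCIIlo. The low library was ctrl replicate 3 for Axl and ctrl replicate 1 for Mrc1. Cd72, a receptor of B cells that macrophages also carry, ran from 25.5 to 402 CPM (median 80.4) and from 14.5 to 33.6 CPM (median 21.6). Ctrl replicate 1 alone reached 402 CPM there, and the log2 difference was 2.16 with it and 1.65 without it (adjusted p = 0.000263). Other members that rose were Ms4a7 (1.51, adjusted p = 0.0233), Cd81 (1.03, adjusted p = 0.0195), Dab2 (0.92, adjusted p = 0.0153), Cd63 (0.90, adjusted p = 0.00743) and Pltp, a phospholipid carrier (0.87, adjusted p = 0.0416). Ms4a7 lost its call in 4 and Pltp in 9 of 15 leave-one-out fits. Cd63 lost it without MHCIIhi ctrl replicate 4 (adjusted p = 0.0724), and Cd81 without MHCIIhi ctrl or ko replicate 4 (highest adjusted p = 0.0675).

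Several defining macrophage genes did not pass the test. Csf1r, the receptor for the macrophage growth factor, had 1194 ± 346 CPM in MHCIIhi and 966 ± 127 in MHCIIlo (log2 difference 0.26, SE 0.17, adjusted p = 0.488). The fractalkine receptor Cx3cr1 had a log2 difference of 0.15, adjusted p = 0.906, and the scavenger protein Cd68 one of -0.03, adjusted p = 0.981. Adgre1, which encodes the F4/80 antigen, had 40.9 ± 18.2 CPM in MHCIIhi and 60.1 ± 14.4 in MHCIIlo (adjusted p = 0.566). Markers of long-lived resident macrophages were under the count filter, with Timd4 at 1.09 and 0.4 CPM on average in MHCIIhi and MHCIIlo and Cd163 at 0 and 0.387. Mertk, the sister receptor of Axl, was under it too, at 28.4 ± 11.8 CPM in MHCIIhi and 6.79 ± 6.77 in MHCIIlo.

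Genes of blood monocytes fell. Of the 30 genes listed for classical monocytes, 29 passed the count filter. Of these, 0 were higher and 11 lower (median log2 difference -0.68), beside 1.28% and 1.89% of all genes. Without MHCIIhi ctrl replicate 1, 1 was higher and 14 were lower. When each library was left out in turn, 7 to 14 were lower. Ly6c2, a marker of the gate itself, is 1 of the 11. F13a1, the coagulation factor XIII subunit that monocytes make, ran from 15.2 to 108 CPM (median 56.3) in MHCIIhi and from 158 to 351 CPM (median 239) in MHCIIlo (log2 difference -1.91, SE 0.27, adjusted p = 0.000157). Vcan, the proteoglycan versican, ran from 0 to 112.6 CPM (median 64.4) and from 115 to 351 CPM (median 184) (log2 difference -1.64, SE 0.30, adjusted p = 0.00302). The gates overlapped for neither gene. Lyz2, lysozyme, had 6470.1 ± 1203 CPM in MHCIIhi and 9893 ± 1625 in MHCIIlo. Its difference was small but without overlap (log2 difference -0.60, SE 0.16, adjusted p = 0.0359), and its call was lost in 11 of 15 fits that left out a single library (highest adjusted p = 0.103). Other members that fell were Smpdl3a (-1.11, adjusted p = 0.00307), Hp (-0.85, adjusted p = 0.00744), Mgst1 (-1.29, adjusted p = 0.00954), Emilin2 (-0.69, adjusted p = 0.0225), S100a6 (-0.66, adjusted p = 0.0249) and F10 (-0.71, adjusted p = 0.042). S100a6, a calcium-binding protein, lost its call in 5 of the 15 fits. Ccr2, the receptor with which monocytes leave the marrow, had 159 ± 93.8 CPM in MHCIIhi and 278 ± 35 in MHCIIlo and did not pass (log2 difference -0.69, SE 0.27, adjusted p = 0.193). Neither did Plac8 (-0.60, adjusted p = 0.34), Fn1 (-0.07, adjusted p = 0.932) or Cd14 (-0.35, adjusted p = 0.495).

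A few receptors for leaving the blood and moving through tissue fell as well. Of 20 tested chemokine receptors and migration genes, 4 fell, 1 rose and 15 did not pass the test (median -0.25), beside 1.89% lower and 1.28% higher of all genes. Without MHCIIhi ctrl replicate 1 the numbers were 5 and 1. Cd44, the hyaluronan receptor, ran from 175 to 873 CPM (median 586) and from 912 to 1824 CPM (median 1025), with no overlap (log2 difference -0.93, SE 0.22, adjusted p = 0.0157). The integrin chains Itga4 and Itgb7 pair to bind the gut address protein MAdCAM-1. Itgb7 had 108 ± 46.6 CPM in MHCIIhi and 204 ± 30.4 in MHCIIlo (log2 difference -0.90, SE 0.20, adjusted p = 0.00796), and Itga4 had 49.7 ± 36.1 and 91.5 ± 33.0 (log2 difference -1.11, SE 0.30, adjusted p = 0.0315). The call of Itga4 was lost in 7 of the 15 leave-one-out fits. The member that rose was Ccr7, which guides cells to lymph nodes, with 60.1 ± 31.6 CPM and 17 ± 11.6 (log2 difference 1.57, SE 0.41, adjusted p = 0.0297). Its call was lost without MHCIIhi ctrl replicate 3 or 4, MHCIIhi ko replicate 2 or MHCIIlo ko replicate 4 (highest adjusted p = 0.103).

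**Figure D4:**
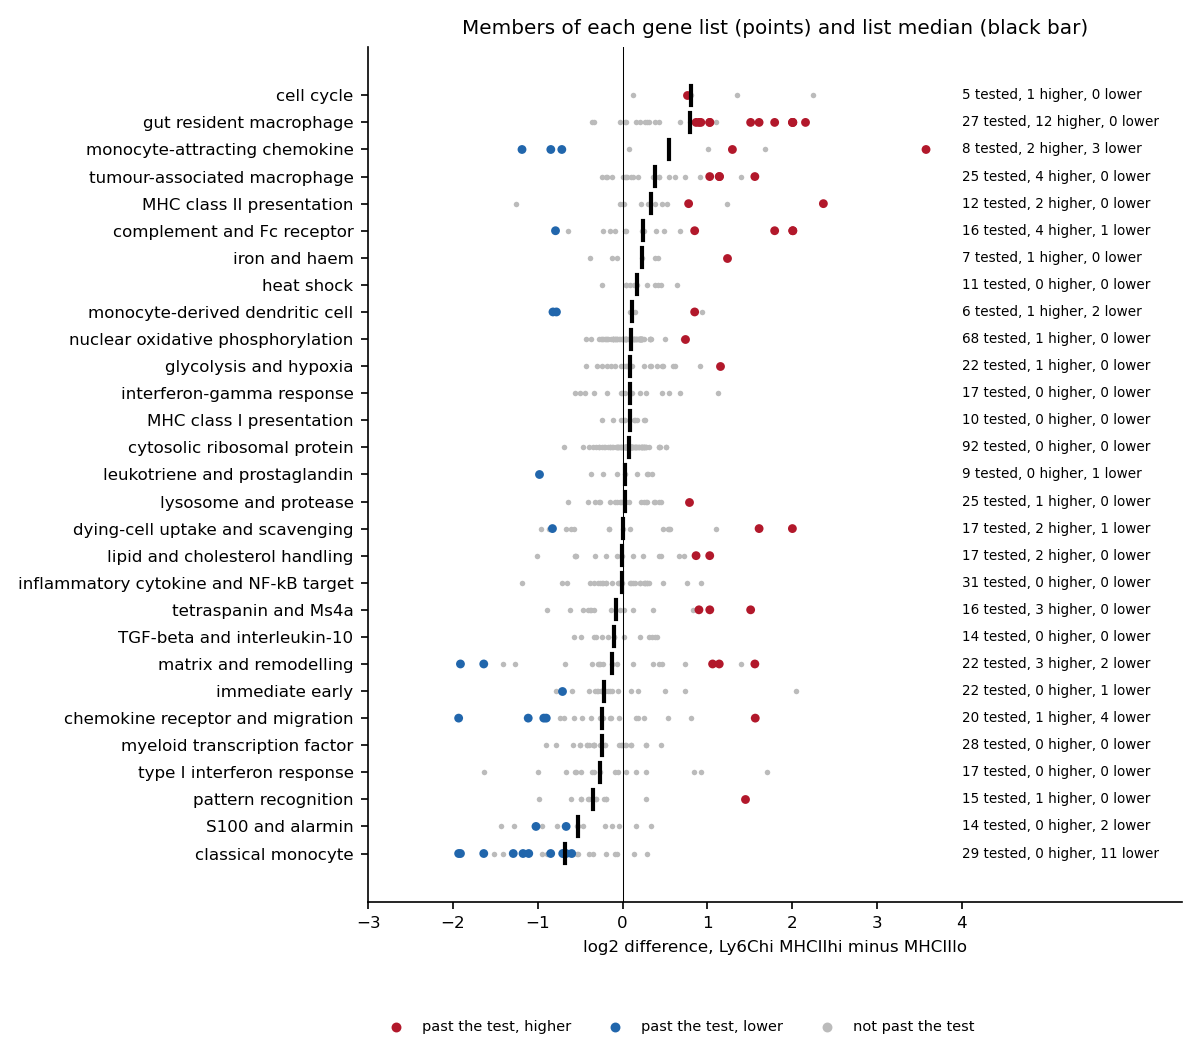
Log2 differences, Ly6Chi MHCIIhi minus MHCIIlo, of the tested members of each gene list, with the list median as a black bar. Red and blue points passed the test, and the numbers tested, higher and lower stand at the right. The gut resident macrophage list had 12 of 27 higher, and the classical monocyte list 11 of 29 lower, beside 1.28% higher and 1.89% lower of all genes.

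Monocyte-attracting chemokines did not move as a group. Of 8 tested, 2 rose and 3 fell (1.28% and 1.89% of all genes did), with the same numbers without MHCIIhi ctrl replicate 1. Those 5 genes lie on chromosome 11. Ccl8 (chr11:82115185-82116799), a ligand of CCR2 and CCR8, ran from 25.5 to 648 CPM (median 211) in MHCIIhi and from 12.8 to 65.0 CPM (median 22.9) in MHCIIlo. It varied widely among MHCIIhi libraries, and the lowest of them, ctrl replicate 3, lay within the MHCIIlo range (log2 difference 3.58, SE 0.50, adjusted p = 0.0017). Ccl12 (chr11:82101845-82103400) ran from 25.5 to 72.6 CPM (median 53.3) and from 4.42 to 54.4 CPM (median 18.4), with 3 of 7 libraries above all of MHCIIlo (log2 difference 1.30, SE 0.36, adjusted p = 0.0421). Its call was lost in 10 of the 15 leave-one-out fits (highest adjusted p = 0.263). Ccl2 (chr11:82035571-82037453), the main ligand of CCR2, ran from 87.3 to 370.0 CPM (median 142) in MHCIIhi and from 209 to 609.5 CPM (median 456) in MHCIIlo, and so went the other way than its neighbours Ccl8 and Ccl12 (log2 difference -1.19, SE 0.25, adjusted p = 0.00956). Ccl6 (chr11:83587882-83593087) and Ccl9 (chr11:83572919-83578636), ligands of CCR1 that macrophages and myeloid cells make, had log2 differences of -0.85, adjusted p = 0.0279 and -0.72, adjusted p = 0.0247. Leaving out 1 library ended the call of Ccl6 in 6 and that of Ccl9 in 4 of 15 fits. Ccl7, which lies between Ccl2 and Ccl12, had 43.2 ± 43.8 CPM in MHCIIhi and 48.5 ± 36.0 in MHCIIlo (adjusted p = 0.983).

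Among genes often reported for tumour-associated macrophages, 4 of 25 tested rose and 0 fell (median 0.39), beside 1.28% and 1.89% of all genes. There were 6 higher without MHCIIhi ctrl replicate 1. Spp1, osteopontin, ran from 262 to 1150.3 CPM (median 732) in MHCIIhi and from 230.3 to 519.9 CPM (median 336) in MHCIIlo, and 5 of 7 MHCIIhi libraries lay above all of MHCIIlo (log2 difference 1.14, SE 0.27, adjusted p = 0.0269). Mmp12, the macrophage elastase, ran from 122 to 436 CPM (median 204) and from 31.1 to 153 CPM (median 82.0), with 6 of 7 above (log2 difference 1.56, SE 0.36, adjusted p = 0.0279). Leaving out a single library ended the call of Spp1 in 7 and that of Mmp12 in 5 of 15 fits, and the highest adjusted p was 0.122 and 0.0906. Mif, macrophage migration inhibitory factor, a cytokine that binds CD74, ran from 332 to 988 CPM (median 838) and from 239 to 507 CPM (median 307) (log2 difference 1.14, SE 0.18, adjusted p = 0.000256). The remaining one is Apoe. Plau, the urokinase that activates plasminogen, also rose (1.06, adjusted p = 0.0247). Its call was lost without MHCIIhi ctrl replicate 4 or MHCIIlo ko replicate 4 (highest adjusted p = 0.13). Arg1, the arginase of alternatively activated macrophages, had 1072 ± 622 CPM in MHCIIhi and 883 ± 480.1 in MHCIIlo and did not pass (adjusted p = 0.876). Nos2, which makes nitric oxide, had 125 ± 103 and 119 ± 120.0 (adjusted p = 0.984). Vegfa, a growth factor for vessels, had a log2 difference of 0.62, adjusted p = 0.0816, and Mmp14, a membrane collagenase, one of 0.74, adjusted p = 0.0674.

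Since the C1q, Spp1, Mmp12 and Cd72 genes rose in the same gate, the 250 bases before the start sites of genes in RefSeq (GRCm38.p6) were searched on both strands. A window was found for 3483 of the 4756 genes tested, for 47 of the 61 that were higher and 61 of the 90 that were lower. The word GAGGAAGT is a form of the site bound by PU.1, the master factor of myeloid cells. It stood in 104 of all windows (2.99%), in 9 of the higher genes (19.1%) and in 2 of the lower genes (3.28%). The 9 were C1qc, Cd72, Il4i1, Mmp12, Noc2l, Spp1 and the near-identical copies Bcl2a1a, Bcl2a1b and Bcl2a1d, and the 2 were Atp8b4 and Ly6c2. This word was chosen after the results were seen, so these shares are a description without a test, and a match is not a bound site. Of the words chosen with the other tests, the Y box of MHC class II promoters (CTGATTGG) stood in 5.31% of all, 4.26% of higher and 1.64% of lower windows. The interferon-stimulated response element stood in 2.84%, 6.38% and 3.28%, the gamma-activated site (TTCNNNGAA) in 5.63%, 10.6% and 1.64%, and the CCAAT box in 35.5%, 29.8% and 31.1%. The 5 windows below show where the PU.1 word, in capitals, stands in 4 genes that rose and in Ly6c2, which fell. Each runs 5′ to 3′ on the gene's strand, and capitals that read ACTTCCTC are the word on the opposite strand. Windows end before the first base that GENCODE gives to a transcript, so 3 of them are shorter than 250 bases.

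C1qc (chr4:136893066-136893164, minus strand, 99 bases, word 195 bases before the RefSeq start): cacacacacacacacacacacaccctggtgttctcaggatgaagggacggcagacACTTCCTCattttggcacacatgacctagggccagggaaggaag

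Spp1 (chr5:104434861-104435110, plus strand, 250 bases): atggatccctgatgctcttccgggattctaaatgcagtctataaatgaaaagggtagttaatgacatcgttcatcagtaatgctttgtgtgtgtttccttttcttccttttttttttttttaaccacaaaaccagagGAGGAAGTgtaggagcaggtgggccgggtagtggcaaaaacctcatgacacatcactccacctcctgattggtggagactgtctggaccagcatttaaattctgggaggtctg

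Mmp12 (chr9:7344147-7344380, plus strand, 234 bases, word 88 bases before the start): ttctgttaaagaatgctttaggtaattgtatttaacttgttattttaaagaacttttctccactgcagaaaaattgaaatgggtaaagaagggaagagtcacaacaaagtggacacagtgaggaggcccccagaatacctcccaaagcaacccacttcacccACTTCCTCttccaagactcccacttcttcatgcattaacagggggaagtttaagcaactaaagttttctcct

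Cd72 (chr4:43454629-43454876, minus strand, 248 bases, word 49 bases before the start): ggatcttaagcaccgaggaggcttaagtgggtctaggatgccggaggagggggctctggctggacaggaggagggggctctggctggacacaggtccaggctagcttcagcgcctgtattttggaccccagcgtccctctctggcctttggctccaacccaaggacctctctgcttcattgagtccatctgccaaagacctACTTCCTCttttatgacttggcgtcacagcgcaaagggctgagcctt

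Ly6c2 (chr15:75111972-75112221, minus strand, 250 bases, word 108 bases before the start): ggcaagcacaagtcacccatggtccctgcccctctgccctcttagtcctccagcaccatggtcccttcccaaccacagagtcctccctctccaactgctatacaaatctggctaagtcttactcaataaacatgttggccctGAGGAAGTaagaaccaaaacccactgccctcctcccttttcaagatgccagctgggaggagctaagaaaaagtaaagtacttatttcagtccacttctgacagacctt

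Few antigen presentation genes beyond Cd74 passed the test. Of 12 tested genes of the MHC class II pathway, 2 rose and 0 fell (median 0.34), beside 1.28% and 1.89% of all genes. The 2 were Cd74 itself and Lgmn, a protease that cuts the invariant chain. There were 3 higher without MHCIIhi ctrl replicate 1. Lgmn ran from 244 to 873 CPM (median 552) in MHCIIhi and from 262 to 406 CPM (median 366) in MHCIIlo, and the lowest MHCIIhi library was ctrl replicate 1 (log2 difference 0.78, SE 0.19, adjusted p = 0.0153). Its call was lost without MHCIIhi ctrl replicate 4 (adjusted p = 0.148). Ciita, the master regulator of these genes, had 88.8 ± 51.3 CPM in MHCIIhi and 35.7 ± 24.4 in MHCIIlo and did not pass (log2 difference 1.24, SE 0.44, adjusted p = 0.15). March1, the ligase that removes MHC class II from the surface, had 13.9 ± 8.49 and 37.3 ± 18.2 CPM (log2 difference -1.26, SE 0.42, adjusted p = 0.106). Of the costimulatory molecules, Cd86 had a log2 difference of 0.46, adjusted p = 0.338, Cd80 one of 0.52, adjusted p = 0.48 and Cd40 one of 0.30, adjusted p = 0.822. None of the 10 tested MHC class I genes passed, none had an unadjusted p under 0.05 and DESeq2 called none. B2m, the light chain, had 4329.7 ± 1604 CPM in MHCIIhi and 3506 ± 786 in MHCIIlo (adjusted p = 0.557).

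Dendritic features were mixed. Itgax, which encodes CD11c, ran from 87.3 to 245 CPM (median 185) in MHCIIhi and from 61.7 to 179 CPM (median 98.1) in MHCIIlo (log2 difference 0.85, SE 0.20, adjusted p = 0.0132), and its call was lost without MHCIIhi ctrl replicate 4 (adjusted p = 0.151). Of 6 tested genes reported for monocyte-derived dendritic cells it was the 1 that rose (1.28% of all genes did), while 2 fell (1.89% did). Those were Napsa, an aspartic protease (213 ± 47.7 against 387 ± 84.0 CPM, log2 difference -0.82, SE 0.18, adjusted p = 0.00683), and Cd300a, an inhibitory receptor (-0.78, adjusted p = 0.0391, call lost in 11 of 15 leave-one-out fits). On the list of mature migratory dendritic cells, 2 of 9 tested genes rose (1.28% of all genes did), with the same number without MHCIIhi ctrl replicate 1. One is Ccr7, and the other is Il4i1, an enzyme that degrades amino acids (50.2 ± 37.9 against 15.1 ± 10.7 CPM, log2 difference 1.76, SE 0.41, adjusted p = 0.0115). Without MHCIIhi ctrl replicate 4, the adjusted p of Il4i1 was 0.0606. Fscn1, the bundling protein that marks these cells, was under the filter at 1.52 ± 2.83 CPM in MHCIIhi and 1.64 ± 1.83 in MHCIIlo.

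The interferon and inflammatory lists held no gene past the test. None of 17 tested interferon-gamma response genes passed the test (median 0.09), and none of 17 type I interferon genes did (median -0.27). By edgeR, 0 and 5 of them had an unadjusted p under 0.05, and DESeq2 called none. Cxcl9 and Cxcl10, chemokines induced by interferon-gamma, differed widely between libraries of the same gate, and Cxcl10 ran from 122 to 1821 CPM (median 373) and from 67.0 to 2066 CPM (median 411). None of 31 tested inflammatory cytokine and NF-kB target genes passed (median -0.01, 4 at an unadjusted p under 0.05, DESeq2 0). Il1b, interleukin-1 beta, had 6997 ± 2423 CPM in MHCIIhi and 7783 ± 726 in MHCIIlo (adjusted p = 0.762), and 1 library, ctrl replicate 1 of MHCIIhi, had 1589 CPM while the other 14 had at least 7081. Cxcl2, which attracts neutrophils, had 9486 ± 4003 and 10242 ± 2095 (adjusted p = 0.862). Nor did any of 28 myeloid transcription factors pass (6 at an unadjusted p under 0.05, DESeq2 0), among them Spi1, which encodes PU.1 (372 ± 131 against 451 ± 71.5 CPM, adjusted p = 0.541) and Cebpb (log2 difference -0.39, adjusted p = 0.366). Without MHCIIhi ctrl replicate 1, 1 transcription factor was higher, and the interferon and inflammatory lists still had none. Over all leave-one-out fits the type I interferon list had at most 1 gene lower. With a term for replicate number in the fit (replicate block), 3 interferon-gamma response genes were higher. Lists of heat shock, TGF-beta and interleukin-10, and cytosolic ribosomal protein genes had 0 past the test of 11, 14 and 92 tested, with 0, 1 and 1 at an unadjusted p under 0.05 and 0 by DESeq2. Of 22 immediate early genes, 1 fell (1.89% of all genes did), the phosphatase Dusp1 (-0.71, adjusted p = 0.0343, call lost in 8 of 15 leave-one-out fits). DESeq2 called 2 of the 22 higher and 1 lower, beside 86 and 118 of 4756 genes.

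Receptors and enzymes outside these groups also differed. Clec4n, which encodes dectin-2, a receptor for fungal sugars, ran from 157 to 925 CPM (median 779) in MHCIIhi and from 179 to 332 CPM (median 288) in MHCIIlo. Ctrl replicate 1 was under every MHCIIlo library, and the other 6 MHCIIhi libraries, at 694 CPM or more, were above all of them (log2 difference 1.44, SE 0.23, adjusted p = 0.00067). It was the 1 of 15 tested pattern recognition genes to pass, beside 1.28% of all genes that rose. Rgs1, which dampens chemokine receptor signals, ran from 145 to 407 CPM (median 240.5) and from 39.9 to 102 CPM (median 87.5), with no overlap (log2 difference 1.47, SE 0.21, adjusted p = 6.62e-05). Ramp3, a partner protein of the calcitonin receptor-like receptor, had 90.3 ± 44.0 CPM in MHCIIhi and 27.7 ± 7.82 in MHCIIlo (log2 difference 1.76, SE 0.26, adjusted p = 0.000157). Alox5ap, which helps 5-lipoxygenase make leukotrienes, ran from 541 to 1299 CPM (median 981) in MHCIIhi and from 1359 to 2252 CPM (median 1841) in MHCIIlo, and the gates did not overlap (log2 difference -0.98, SE 0.18, adjusted p = 0.00131). No other of 9 tested leukotriene and prostaglandin genes passed, and 1.89% of all genes fell. Anxa1, annexin A1, linked to the resolution of inflammation, fell as well (-1.02, adjusted p = 0.0131), with its call lost without MHCIIhi ctrl replicate 4 (adjusted p = 0.0793). With S100a6 it made 2 of 14 tested S100 and alarmin genes that fell (1.89% of all genes did). Without MHCIIhi ctrl replicate 1, 8 fell (136 of 5183 genes did). Complement C3 fell while the C1q chains rose (-0.79, adjusted p = 0.0313), and its call was lost in 7 of 15 leave-one-out fits. Among metabolic enzymes, Khk, the first enzyme of fructose use, had 12.6 ± 9.53 CPM in MHCIIhi and 50.7 ± 19.2 in MHCIIlo (log2 difference -1.67, SE 0.37, adjusted p = 0.00956), and Idh1, isocitrate dehydrogenase, had 22.7 ± 16.8 and 57.3 ± 28.1 (log2 difference -1.75, SE 0.44, adjusted p = 0.0225), with the call lost in 4 of 15 leave-one-out fits. The glycolysis and hypoxia list had 1 of 22 higher, the cytokine Mif, beside 1.28% of all genes. Without MHCIIhi ctrl replicate 1 it had 5 higher, beside 106 of 5183 genes. Blvrb, biliverdin reductase B, rose (1.23, adjusted p = 0.0167). With 803 CPM in ctrl replicate 1, the library with the red cell transcripts, its log2 difference was 1.23, and without that library it was 0.92 (adjusted p = 0.0056). Of 5 tested cell cycle genes, Tuba1b, a tubulin, rose (1.28% of all genes did). But Tuba1b did not pass without that library (log2 difference 0.62, adjusted p = 0.0607), and Mki67 did not pass with the library (132 ± 289 against 19.8 ± 12.9 CPM, adjusted p = 0.252).

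Further genes past the test were named for the size of their change, their level or their list. Pi16, a peptidase inhibitor, ran from 0 to 25.5 CPM (median 18.2) in MHCIIhi and from 29.8 to 92.8 CPM (median 54.8) in MHCIIlo (log2 difference -2.01, SE 0.36, adjusted p = 0.00131), and Nhsl2 had 6.8 ± 6.08 and 28.5 ± 7.30 CPM (log2 difference -2.02, SE 0.49, adjusted p = 0.0167). Neither gene overlapped between the gates, and both kept their call whichever library was left out. F5, coagulation factor V, fell too (-1.90, adjusted p = 0.0421), but its call was lost in 10 of 15 leave-one-out fits, and that of the abundant actin-binding gene Tmsb10 (-0.59, adjusted p = 0.0339) in 11. Cd300lf, a receptor for lipids of dying cells, had a log2 difference of -0.83, adjusted p = 0.0279, Pxdc1 one of 1.88, adjusted p = 0.0247 and Ndufa12, a subunit of respiratory complex I, one of 0.74, adjusted p = 0.0315. They lost their calls in 5, 5 and 7 of 15 fits.

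Several transcripts known from neutrophils were lower in MHCIIhi. Of 27 listed neutrophil genes, 20 were tested, of which 5 fell and 1 rose (median -1.06, beside 1.89% and 1.28% of all genes), and without MHCIIhi ctrl replicate 1, 11 fell and 1 rose. Stfa2l1, a protease inhibitor of the stefin A family, ran from 0 to 7.26 CPM (median 0) in MHCIIhi and from 19.1 to 67.3 CPM (median 40.8) in MHCIIlo (log2 difference -3.55, SE 0.58, adjusted p = 0.000377). The other stefin A copies are close in sequence, so its reads may be shared. G0s2, an inhibitor of fat breakdown, ran from 20.1 to 576 CPM (median 53.3) and from 311 to 769 CPM (median 555), and the high MHCIIhi library was ctrl replicate 1 (log2 difference -2.59, SE 0.61, adjusted p = 0.0391). Without it the log2 difference was -3.58 (adjusted p = 6.83e-06), but the call of G0s2 was lost in 12 of the 15 leave-one-out fits (highest adjusted p = 0.108). Csf3r, the receptor for G-CSF, had 33.8 ± 7.18 CPM in MHCIIhi and 93.3 ± 33.3 in MHCIIlo (log2 difference -1.35, SE 0.27, adjusted p = 0.00359), and Cd177 and Wfdc17 fell too (-1.86, adjusted p = 0.0494, and -0.88, adjusted p = 0.0336). Both lost their call in many leave-one-out fits, 12 and 9 of 15. Outside the list, Slpi, a protease inhibitor of neutrophils, macrophages and mucosa, ran from 472 to 2989 CPM (median 2157) and from 3098 to 9302 CPM (median 4459.8) with no overlap (log2 difference -1.31, SE 0.30, adjusted p = 0.0225), and Il1f9, interleukin-36 gamma, had 10.04 ± 18.8 and 78.7 ± 54.1 CPM (log2 difference -3.35, SE 0.68, adjusted p = 0.0105). Each of these 2 lost its call in 1 leave-one-out fit, without MHCIIhi ctrl replicate 4 (adjusted p = 0.0561 and 0.0602). Il1r2, the decoy receptor for interleukin-1, went the other way, with 390.2 ± 125 CPM in MHCIIhi and 121 ± 38.1 in MHCIIlo (log2 difference 1.68, SE 0.21, adjusted p = 1.02e-05). S100a8 and S100a9, the calprotectin chains of neutrophils and monocytes, did not pass (log2 differences of -1.28, adjusted p = 0.741 and -1.43, adjusted p = 0.715). Summed over the list, neutrophil markers had a median of 4151 CPM in MHCIIhi and 15149 in MHCIIlo. The difference in mean log2 level was -1.39 (adjusted p = 0.18 over 12 lists, two-sided exact permutation test), and -2.03 without ctrl replicate 1 (adjusted p = 0.004). Of the 26 list genes in the table, 1 (Padi4) was at 0 in all 15 libraries. Ly6g, which defines neutrophils, had 31 counts in all and was found in 3 of 7 MHCIIhi and 8 of 8 MHCIIlo libraries, at means of 23.4 and 7.64 CPM. Whether neutrophil RNA had a part in the lower monocyte and migration genes, some of which neutrophils share (Cd44, Alox5ap, Anxa1), was not tested.

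T cell transcripts were higher in MHCIIhi. Of 22 listed T and NK cell genes, 5 passed the count filter. Of these, 2 rose and 0 fell, beside 1.28% and 1.89% of all genes. Both that rose are parts of the T cell receptor complex. Trbc2 ran from 22.9 to 139.7 CPM (median 36.2) in MHCIIhi and from 0 to 12.8 CPM (median 9.20) in MHCIIlo, with no overlap (log2 difference 2.33, SE 0.47, adjusted p = 0.00359), and Cd3d had 66.5 ± 40.8 and 16.5 ± 11.5 CPM (log2 difference 1.73, SE 0.44, adjusted p = 0.0262). Il2rb, the interleukin-2 receptor chain of T and NK cells, rose as well (log2 difference 2.43, SE 0.69, adjusted p = 0.0455), but its call was lost in 11 of 15 leave-one-out fits, among them that without MHCIIhi ctrl replicate 1 (adjusted p = 0.109). Summed over the list, T and NK markers had a median of 286 CPM in MHCIIhi and 122 in MHCIIlo. They were the only 1 of 12 lists of other cells whose summed level passed with all 15 libraries (difference in mean log2 level 1.72, adjusted p = 0.00746, two-sided exact permutation test). Without ctrl replicate 1 it was 1.46 (adjusted p = 0.012). Ncr1 and Icos were at 0 in all libraries, and Cd8a had 4 counts in all. With the T and NK level of each library as a covariate, a choice made after seeing the data, 27 genes were higher and 16 lower, and 22 of the 65 named genes that had passed still did. These 22 include Cd74, the C1q chains, Apoe, Axl, Mrc1, Mif, Ccl8, Clec4n, Rgs1, Ly6c2 and F13a1. Of those that are not, several had a fold close to or above that of the fit without the covariate. The log2 difference was -1.05 for Ccl2 (adjusted p = 0.285), -1.70 for Vcan (0.0762), -0.82 for Alox5ap (0.107), 1.53 for Spp1 (0.12) and 1.98 for Mmp12 (0.146). Cd44 and Cd72 moved further towards 0, to -0.36 (0.711) and 0.93 (0.44). Whether T or NK cell RNA had a part in the other differences was not tested, since this covariate cannot be well separated from the gate. With the covariate, the classical monocyte list had 4 lower, the migration list 1 lower and the gut resident macrophage list 7 higher. The mature migratory dendritic list, which holds Ccr7 and Il4i1, then had 0 higher and 0 lower. B and plasma cell markers ran from 83.5 to 13763 CPM in MHCIIhi and from 67.3 to 6093 in MHCIIlo (adjusted p = 0.346). Of 5 tested genes 1 rose (1.28% of all genes did), Mzb1 (3.10, adjusted p = 0.0359), with 0 higher without ctrl replicate 1.

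The second question was whether this difference is the same in mice labelled ctrl and ko. No gene passed the test of the interaction of gate and genotype (edgeR, 0 of 4756, 0%), with 229 at an unadjusted p under 0.05 and a smallest adjusted p of 0.982. DESeq2 called 0, with 212 unadjusted. The genes with the smallest p in that test included Rasa3, Csnk1e, Itgal and Ptp4a3, none of which passed. Without MHCIIhi ctrl replicate 4, 8 genes passed, among them Ccr2 and Ctla2a. Within ko alone, 54 genes were higher and 40 lower in MHCIIhi. Within ctrl alone, where MHCIIhi had 3 libraries, 0 passed in either direction by edgeR, with 340 at an unadjusted p under 0.05. All 132 of the called genes that could be tested in ctrl had the sign of the joint fit there, and so did all 131 in ko. These genes were called from the same libraries, so agreement in sign was likely beforehand and is no separate test. For C1qb the log2 difference was 1.89 in ctrl and 2.16 in ko, for Ccl8 3.09 and 4.0, and for F13a1 -2.21 and -1.71. Each gate held both genotypes, but the ctrl and ko libraries also differed in the base content of their barcodes (1 against 3 to 5 G or C bases), so genotype and barcode cannot be told apart here.

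The third question was whether the difference between MHCIIhi and MHCIIlo depends on Ly6C. Cells labelled low for Ly6C (Ly6Clo) were sorted by MHC class II as well, from mice given the same treatment, at the same day and with the same genotype labels. The Ly6Chi difference was tested against the Ly6Clo difference, which came from 16 MHCIIhi and 8 MHCIIlo samples and shares no library with it. Of 6032 genes tested, 130 had a signed difference, MHCIIhi minus MHCIIlo, that was higher in Ly6Chi (2.16%) and 110 one that was lower (1.82%), 3.98% in all. A gene that fell by more in Ly6Chi counts among the 110. Among the 61 genes that rose in Ly6Chi MHCIIhi, 24 also passed in the same direction in Ly6Clo, 5 passed in the opposite direction, and 25 passed the test of the difference between the gates. Of the 90 that fell, 40 passed in the same direction in Ly6Clo, 4 in the opposite one, and 20 passed the test of the difference. Both sets were chosen by their Ly6Chi difference, which is part of that test, so the 25 and the 20 follow partly from this choice. The share of all genes that passed within Ly6Clo is not given here, so the overlaps of 24 and 40 have no background beside them. Cd74 differed alike in both gates, by 2.39 in Ly6Chi and 2.37 in Ly6Clo (difference between them 0.02, SE 0.21). Ccl8 rose in both, by 3.51 and 3.24 (difference 0.26, SE 0.58, adjusted p = 0.886).

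Of 30 gut resident macrophage genes tested in that fit, 9 had a signed difference that was higher in Ly6Chi and 3 one that was lower. The 12 that rose in Ly6Chi MHCIIhi were chosen by a difference that is part of this test, which favours higher values. Of these 12, 6 were among the 9 (the C1q chains, Axl, Apoe and Cd63) and 0 among the 3, and the other 6 did not pass this test. Mrc1 was one of those, with a Ly6Chi minus Ly6Clo value of 0.79 (adjusted p = 0.197), and Pltp another, with -0.18 (adjusted p = 0.836). C1qc differed by 1.97 in Ly6Chi and 0.19 in Ly6Clo (adjusted p of the difference = 4.6e-06), C1qa by 1.74 and 0.14 (0.000215), Axl by 1.93 and 0.24 (0.00139), and Apoe by 0.99 and 0.26 (0.0358). In Ly6Clo, C1qc was high in both gates. It had a mean of 2606 CPM in Ly6Clo MHCIIhi and 2289.6 in Ly6Clo MHCIIlo, against 564 and 148 in Ly6Chi MHCIIhi and MHCIIlo in the same fit. Clec4n and Rgs1 also differed by more in Ly6Chi, by 1.42 and 1.45, with 0.06 and -0.06 in Ly6Clo (adjusted p of the difference = 5.76e-05 and 4.6e-06). Spp1 and Mmp12 had opposite signs in the 2 gates. Spp1 had a log2 difference of 1.14 in Ly6Chi and -1.5 in Ly6Clo (adjusted p = 6.3e-08 within Ly6Clo and 3.7e-07 for the difference), and Mmp12 had 1.5 and -1.15 (adjusted p = 0.00117 and 0.000252). Mif had -0.35 in Ly6Clo, and its signed difference in Ly6Chi was higher by 1.53 (6.44e-07), and Anpep, an aminopeptidase, had 1.81 and -0.60 (7.76e-06).

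Some of the genes that fell behaved likewise. F13a1 had a log2 difference of -1.94 in Ly6Chi and -0.24 in Ly6Clo (adjusted p of the difference = 0.0245), and was low in both Ly6Clo gates, with means of 10.3 CPM in MHCIIhi and 11.7 in MHCIIlo. Ccl2 had -1.21 and 0.46 (0.00719), Itgb7 -0.93 and 0.34 (0.0046), Napsa -0.81 and 0.97 (6.44e-07), and Khk -1.64 and 1.31 (4.52e-05). G0s2 fell more in Ly6Clo, with -2.72 in Ly6Chi and -5.47 in Ly6Clo (0.0138). Lyz2 fell alike in both, with -0.65 in Ly6Chi and -0.60 in Ly6Clo (0.946). Unlike F13a1 it was abundant in Ly6Clo, with means of 8667 CPM in MHCIIhi and 13056 in MHCIIlo, against 6681 and 10419 in Ly6Chi. Ccr7 and Il4i1, from the list of mature migratory dendritic cells, rose in both, Ccr7 by 1.56 and 2.68 and Il4i1 by 1.63 and 2.96. These differences did not pass the test between gates (adjusted p = 0.351 and 0.311). Which cells the 2 transcripts came from was not tested. Cd83, a marker of mature dendritic cells, rose in Ly6Clo (1.75) and had 0.36 in Ly6Chi (adjusted p of the difference = 4.52e-05). Tspan13, a tetraspanin, had 0.03 in Ly6Chi and 1.71 in Ly6Clo (5.41e-05), Nrros, a regulator of oxygen radicals and TGF-beta, had -0.58 and 0.67 (7.83e-05), and the interferon-induced Ifi27l2a had -0.33 and 1.28 (0.00331).

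**Figure D5:**
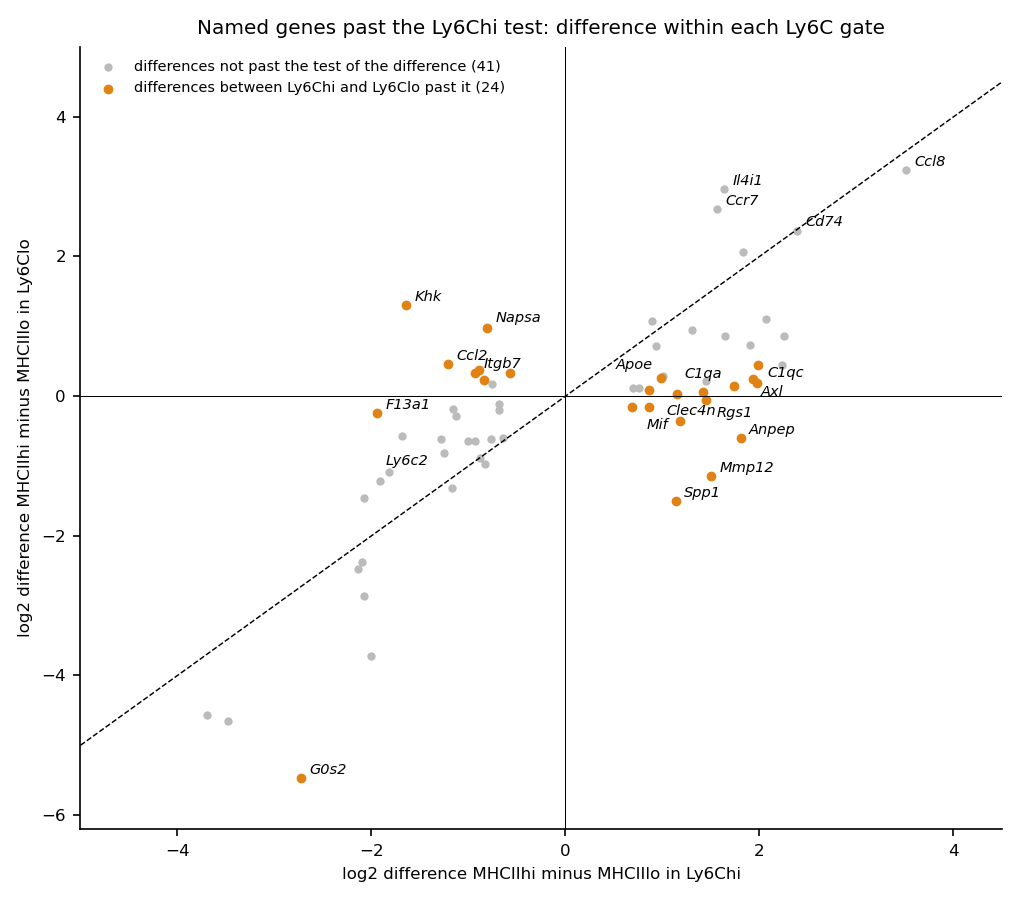
Log2 difference MHCIIhi minus MHCIIlo in Ly6Chi (horizontal) and in Ly6Clo (vertical) for the 65 named genes past the test in Ly6Chi, from 1 fit of all gates. Orange points passed the test of the difference between the gates (24), grey points did not (41), and the dashed line marks equal differences. Cd74 and Ccl8 lie near that line, whereas C1qa, C1qc and Axl lie near 0 in Ly6Clo and Spp1 and Mmp12 below 0.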

How the data were processed

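RNA of sorted cells was sequenced from the 3′ end of poly(A) transcripts, per the labels' protocols. The authors deposited a table of counts per gene and library, whole numbers that are not normalized, for 24538 genes. The submitters' processing notes name R 3.4.4, DESeq2 1.18.1 and the build GRCm38. The aligner, the counter, the annotation and whether counts are reads or unique molecules were not given in the sources used here. A row naming no gene, with 127 of 13126900 counts, was left out. Gene positions came from GENCODE M21, which matched 15856 symbols (64.6%), and promoter sequences from RefSeq (GRCm38.p6).

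The 15 libraries were fitted with edgeR 4.0.16 (limma 3.58.1, R 4.3.3) by its quasi-likelihood test, with terms for gate and genotype and TMM library sizes. A filter on low counts (filterByExpr, 10 per library and 15 in total) came first, p-values were adjusted by Benjamini-Hochberg over all genes tested, and an adjusted p under 0.05 was a call. CPM are counts scaled to the total of a library times its TMM factor. The fit across Ly6C used all libraries with at least 0.1 of the median total, and a second library of a replicate was added to the first. Summed marker levels were compared as log2(CPM + 1) by a two-sided exact permutation test over all 6435 splits. Gene lists and samples were chosen with earlier results of these data known.

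Genes named by rule were those with the largest changes past the threshold (at least 20 CPM in the higher gate), the sort markers and Ccl17, up to 5 members past the threshold of each list or, in a list with none, its 2 most abundant members, the most abundant genes past it, and the top genes of each interaction. Other list members given as examples, the PU.1 word and the printed promoters were chosen after their values were seen. The plan had been to print promoters of antigen presentation and interferon genes only. Alternatives were DESeq2 1.42.0 as test or for size factors, no filter, all 16 libraries, a replicate block, each genotype alone, no covariate, all 8 groups in 1 fit, and leaving out each library. Genes for most MHC class II chains and mitochondrially encoded genes are not analysed here, and some other genes that count in the totals are not reported here. The scripts were tested on simulated data.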

Additional observations from a re-analysis of the deposited data

Results flagged for a closer look

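Single libraries stood far from the others of their gate in 31 of 206 groups examined. The limit used would flag about 1 in 20 groups of normally distributed values. Some flags are counts of 0 in genes with few counts, and the groups share libraries, so that rate is no background here. Of the 31 flags, 20 were in Ly6Chi MHCIIhi ctrl replicate 1, the library with the red cell transcripts. Its summed haemoglobin level was 317295 CPM and its summed neutrophil level 88191 CPM, each the highest of MHCIIhi, as were Hsp90ab1 (3056 CPM) and Tuba1b (227.0 CPM). It was the lowest of MHCIIhi for Ccl6 (244.5 CPM), Cd44 (174.6 CPM), Cebpb (489.0 CPM), Clec4n (157.2 CPM), Il1b (1589 CPM), Lgmn (244.5 CPM) and Mrc1 (17.5 CPM). It was also the lowest for S100a6 (1275 CPM), Smpdl3a (34.9 CPM), Socs3 (296.9 CPM), Tgfb1 (69.9 CPM) and Wfdc17 (506.4 CPM), and had 0 CPM of Anpep, Csnk1e, Pi16 and Vcan. MHCIIhi ctrl replicate 3 was the highest for Ndufa12 (509.3 CPM) and had 0 CPM of Rasa3.

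In MHCIIlo, ctrl replicate 1 was the highest for Apoe (4977 CPM), ctrl replicate 2 for Hspa8 (2689.9 CPM), ctrl replicate 3 for Cd44 (1824 CPM) and ko replicate 3 for Slpi (9302 CPM). Ctrl replicate 2 was the lowest for Ramp3 (13.3 CPM) and Znhit1 (110.4 CPM), and ctrl replicate 4 for Rgs1 (39.9 CPM). Ctrl replicate 4 also had 0 CPM of Trbc2 and of the summed endothelial markers.

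Between the Ly6C gates, 29 named genes passed the test of the difference of differences (edgeR). The signed MHCIIhi minus MHCIIlo log2 difference was higher in Ly6Chi by 2.41 for Anpep, 0.73 for Apoe, 1.69 for Axl, 1.13 for Blvrb, 1.6 for C1qa, 1.54 for C1qb and 1.79 for C1qc. It was also higher by 1.02 for Cd63, 1.36 for Clec4n, 2.75 for G0s2 (which fell in both and by more in Ly6Clo), 0.77 for Itgax, 1.53 for Mif, 2.65 for Mmp12, 1.51 for Rgs1, 2.64 for Spp1 and 0.85 for Tuba1b. For Hbb-bt, a globin whose reads its near-identical copies may share, the value was 7.72. Its level in Ly6Chi MHCIIhi was 51814 CPM in ctrl replicate 1, the library with the red cell transcripts. The median was 101.7 CPM there and 54.4 in Ly6Chi MHCIIlo, so the value of Hbb-bt rests on that library. The Ly6Chi minus Ly6Clo value was -1.68 for Ccl2, -1.07 for Cd300a, -1.39 for Cd83, -1.70 for F13a1, -1.62 for Ifi27l2a, -1.27 for Itgb7 and -2.95 for Khk. It was -1.78 for Napsa, -1.26 for Nrros, -0.90 for Tmsb10, -1.68 for Tspan13 and -1.27 for Wfdc17.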

How the results depend on the processing

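No gene called in the main comparison changed sign under any alternative in which it was tested. DESeq2 size factors gave 64 higher and 88 lower genes, the DESeq2 test 86 and 118, all 16 libraries 65 and 100, and no covariate 63 and 95. The numbers moved by over 1.5 times without a filter (119 higher, 136 lower) and with all 8 groups in 1 fit (137 higher, 169 lower). In ko alone the number lower moved (40, with 54 higher), and in ctrl alone both did (0 and 0). Alternatives chosen after seeing the data gave 103 higher genes without both MHCIIhi libraries under 100000 counts, and 27 higher and 16 lower with the T and NK level as a covariate. Higher genes made up 40.4% of calls in the main fit, 57.4% in ko alone and 62.8% with that covariate. Leaving out each library gave 28 to 106 higher and 41 to 136 lower genes. Of 65 named genes called, 31 kept their call in every one of the 15 fits, 28 lost it without MHCIIhi ctrl replicate 4, and 2 (Il2rb and Tuba1b) without MHCIIhi ctrl replicate 1. Genes depending on genotype numbered 3 without a filter (Ctse, Ctsg and Mpo), 3 with the replicate block (Elane, Hba-a1 and Reg4) and 0 to 8 when each library was left out. Genes depending on Ly6C numbered 367 by DESeq2. The causes were not tested.

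The labels do not say that equal replicate numbers are the same mouse. Deviations of same-numbered libraries correlated by 0.0723 to 0.248 (4 of 7 pairs over 0.1), and each correlated best with its own number. With the replicate block, 63 genes were higher and 87 lower, 118 of the 151 calls were shared, and 54 of 65 named genes kept their call. In lists with no gene past the main test, the block called Cxcl9 (1.08 on the log2 scale, adjusted p = 0.0206), Fcgr4 (0.73, 0.0128) and Serpina3g (1.603, 0.046) of the interferon-gamma list higher, and Agr2 (-3.05, 0.0135) and Reg3g (-6.48, 1.36e-07) of the epithelial list lower. The block without MHCIIhi ctrl replicate 1 gave 179 and 219.

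Depth is a limit: of 24538 genes, 4756 passed the count filter, and the MHCIIhi libraries of ctrl replicates 1 and 3 held 78264 and 34362 counts. Genes at a few CPM, such as Ccl17, gave no usable difference.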

Other observations

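In other groups of genes, few members passed the test, which at this depth does not show that the rest were equal. Of 25 tested lysosome and protease genes, Lgmn rose (1.28% of all genes did). Without MHCIIhi ctrl replicate 1, 4 rose (106 of 5183 genes did). Of 68 nuclear genes of oxidative phosphorylation, Ndufa12 rose, a share near the 1.28% of all genes. Of 9 tested genes of patrolling monocytes, Clec4a1, a lectin receptor, fell (15.1 ± 13.4 CPM in MHCIIhi, 57.9 ± 23.2 in MHCIIlo, log2 difference -1.44, SE 0.36, adjusted p = 0.021 by edgeR), beside 1.89% of all genes. None of 15 tested epithelial genes passed (2 at an unadjusted p under 0.05, 1 lower by DESeq2), and their summed level ran from 105 to 6366 CPM in MHCIIhi and from 468 to 2957 in MHCIIlo.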
